A study of Mus musculus with 32 samples.

Results

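Malat1, Neat1, Miat, Snhg11, Nron and Kcnq1ot1 are long noncoding RNAs, most of them known for staying in or near the nucleus. They were taken by name, as 6 of the 24062 genes in the deposited count files. Their levels were compared between RNA from the S100a10 cells of mouse cortex and RNA of the whole cortex, and between mice kept and treated in different ways.

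The mice carried the bacTRAP transgene Tg(S100a10-EGFP/Rpl10a)ES691Htz, from 1 founder line, in which S100a10 regulatory elements drive EGFP fused to the ribosomal protein L10a. Polysomes holding the fusion protein were pulled down with antibodies to EGFP, a method called translating ribosome affinity purification (TRAP), and RNA of the same kind of homogenate before the pull-down served as input. The 32 libraries, 4 of each fraction in each group, were pools of the cortices of 3 male mice. Sh + Flx anxious mice were single-housed (Sh) from weaning, received 0.167 g/L fluoxetine (Flx) in the drinking water for 21 days according to the labels, and were classed as anxious by behaviour. Sh + Flx mice had the same housing and drug without that class, Sh mice were single-housed and labelled vehicle, and Gh mice were group-housed and labelled vehicle. All groups carry the transgene, and every cell that uses the S100a10 elements, whatever its type, can contribute to TRAP. The study describes 4 biological replicates for each condition. The labels do not state whether the 4 libraries of a group are 4 different pools. The p-values thus measure the spread between libraries, which may in part be technical.

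Long noncoding RNAs of this kind are transcribed like messenger RNA, and some of them are spliced, but they act as RNA and are not read by ribosomes. Malat1 lies in nuclear speckles, bodies rich in splicing factors, and Neat1 is the scaffold on which paraspeckles are built. An RNA that stays in the nucleus is away from polysomes, which form in the cytoplasm. No nuclear fraction was sequenced in the libraries used here, so the place of an RNA in the cell was not measured.

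Malat1 lies at chr19:5795690-5802672 on the minus strand of mouse build GRCm38, as 1 exon of 6983 bases in RefSeq. Neat1 lies at chr19:5824708-5845480 on the same strand, 22035 bases away, with RefSeq transcripts of 20771 and 3185 bases. Both are known to end in a U-rich element that folds back onto an A-rich tail, which protects an RNA without a poly(A) tail. The ends are shown because this shared element sits in otherwise different sequence. The Malat1 stretch is chr19:5795982-5796101, minus strand, which ends just before the Mascrna gene (chr19:5795924-5795981), and the Neat1 stretch is chr19:5824708-5824827, minus strand, the last 120 bases of the long transcript. Capitals mark TTTTGCTTT.
Malat1: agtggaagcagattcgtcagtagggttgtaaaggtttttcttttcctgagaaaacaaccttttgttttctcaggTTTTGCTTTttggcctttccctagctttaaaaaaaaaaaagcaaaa
Neat1: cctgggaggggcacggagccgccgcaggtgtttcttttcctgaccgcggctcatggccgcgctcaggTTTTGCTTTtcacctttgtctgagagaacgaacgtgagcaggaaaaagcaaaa
The letters TTTTGCTTT were in 549 of 12637 RefSeq lncRNAs (4.34%), and their reverse complement in 3.78%. Of all 120-base windows of those RNAs, 0.235% held the letters and 0.207% the reverse complement. Malat1 held 1 copy, Neat1 and Kcnq1ot1 held 2 each, and Miat, Snhg11 and Nron held 0.

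Miat, a spliced RNA of 7 exons and 8760 bases at chr5:112213228-112228948 on the minus strand, is known for repeats of the branch-point letters TACTAAC, to which the splicing factors Sf1 and Qk bind. The repeats are shown because no other member carries them in such number. Miat_a is chr5:112216732-112216832 and Miat_b is chr5:112217289-112217455, both minus strand, and capitals mark TACTAAC.
Miat_a: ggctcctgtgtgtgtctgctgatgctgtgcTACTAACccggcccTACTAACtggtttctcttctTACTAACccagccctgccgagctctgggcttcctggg
Miat_b: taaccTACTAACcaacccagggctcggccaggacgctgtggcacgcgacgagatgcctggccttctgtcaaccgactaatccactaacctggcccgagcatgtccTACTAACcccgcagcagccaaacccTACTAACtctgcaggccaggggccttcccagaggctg
Miat held 6 copies, a number reached by 3 of the 12637 lncRNAs, Kcnq1ot1 held 4 and Neat1 held 1. TACTAAC was in 6.14% of the lncRNAs and its reverse complement in 5.12%, and it was in 0.362% of the 120-base windows, with its reverse complement in 0.304%. These are matches of letters and not measured binding sites.

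Snhg11 (chr2:158375713-158386474, plus strand, 5 exons, 6118 bases) hosts small nucleolar RNAs in its introns and is known as a neuronal transcript. Nron (chr2:33805816-33813591, plus strand, 3 exons, 3653 bases) lies inside Mvb12b on the opposite strand and shares 0 exon bases with it. It is known as part of a complex that holds the transcription factor NFAT outside the nucleus, so a place in the nucleus is not what it is known for. Kcnq1ot1 (chr7:143213111-143296547, minus strand, 83437 bases) is transcribed antisense within Kcnq1 and silences neighbouring imprinted genes on the same chromosome. It shares 125 exon bases with Kcnq1, and its whole length lies inside that gene. Because the amplification kit does not mark strand, Kcnq1 RNA over that length, introns included, cannot be told apart from Kcnq1ot1. The same holds for unspliced Mvb12b RNA over Nron.

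Reads in genes numbered 9776244 to 64788703 in TRAP libraries and 19265435 to 34515281 in input libraries. The share of all reads in no annotated feature was 25.2% to 39.8% in 14 TRAP libraries and 45.1% to 55.2% in input. The remaining TRAP libraries, Sh TRAP 2 and Sh TRAP 3, had 50.3% and 58.6%. S100a10, the gene whose elements drive the tag, was low in both, at 20.4 CPM in Sh TRAP 2 and 11.2 CPM in Sh TRAP 3, where CPM are counts scaled to the same total of reads in genes in every library. The 14 others had 41.5 to 73.0 CPM of S100a10, and input had 5.45 to 10.3 CPM. These 2 libraries also stood apart for Malat1, Miat, Snhg11 and Kcnq1ot1, so results that rest on them are given with and without them. Without them Sh TRAP is Sh TRAP 1 and 4 alone, which were nearly alike (mean chi-square 2.17 per gene, against 64.8 or more in the other Sh TRAP pairs), so that errors and p-values of those fits rest on little spread within Sh TRAP. Although the study describes 4 biological replicates, Gh TRAP 2 and 3 differed by about the sampling noise and were counted as 1 library. This leaves 3 Gh TRAP libraries. All 8 meningeal fibroblast markers were higher in TRAP in every group (adjusted p under 0.05, edgeR), with a summed level of 2177 to 11489 CPM in TRAP and 105 to 222 CPM in input. All 6 RNAs passed the filter on low counts in the fits of both fractions together, of TRAP and of input.

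Malat1 was the gene with the most reads in each of the 16 input libraries, where it took 2.58% to 4.56% of reads in genes, and the 6 RNAs together took 2.82% to 4.83%. In TRAP it ranked 4th to 10th outside Sh TRAP 2 and 3, with 0.311% of reads in genes in the lowest library. In Sh TRAP 3 it took 4.07% and ranked 1st. Snhg11 ranked 19th to 47th in input and 110th to 710th in TRAP outside the same 2 libraries.

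Per kilobase of RefSeq exon, the mean input level was 5493 ± 757 CPM per kb for Malat1 (SD, n = 16) and 288 ± 41.3 CPM per kb for Snhg11. Miat followed at 42.7 ± 4.81 CPM per kb. Neat1 at 3.39 ± 0.607 CPM per kb and Kcnq1ot1 at 3.30 ± 0.567 CPM per kb did not differ beyond their spread. Nron came last at 0.147 ± 0.102 CPM per kb. The place of Neat1 rests on the length used, since with the short transcript its input level was 22.1 CPM per kb, and which gene model was counted is not known here.

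In TRAP without Sh TRAP 2 and 3 the order per kilobase was Malat1 at 735 ± 198, Snhg11 at 77.6 ± 27.2 and Miat at 6.62 ± 2.53 CPM per kb (SD, n = 13). Kcnq1ot1 at 2.51 ± 0.841 and Neat1 at 1.53 ± 0.456 CPM per kb overlapped. Nron had 0.220 ± 0.234 CPM per kb, with 0 to 96 reads in a TRAP library and 0 to 37 in an input library. At 0 reads, Sh + Flx anxious TRAP 2 allows up to 0.127 CPM of Nron, and Gh input 2 up to 0.0911 CPM (3 counts in each library, counting error only).

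**Figure D1:**
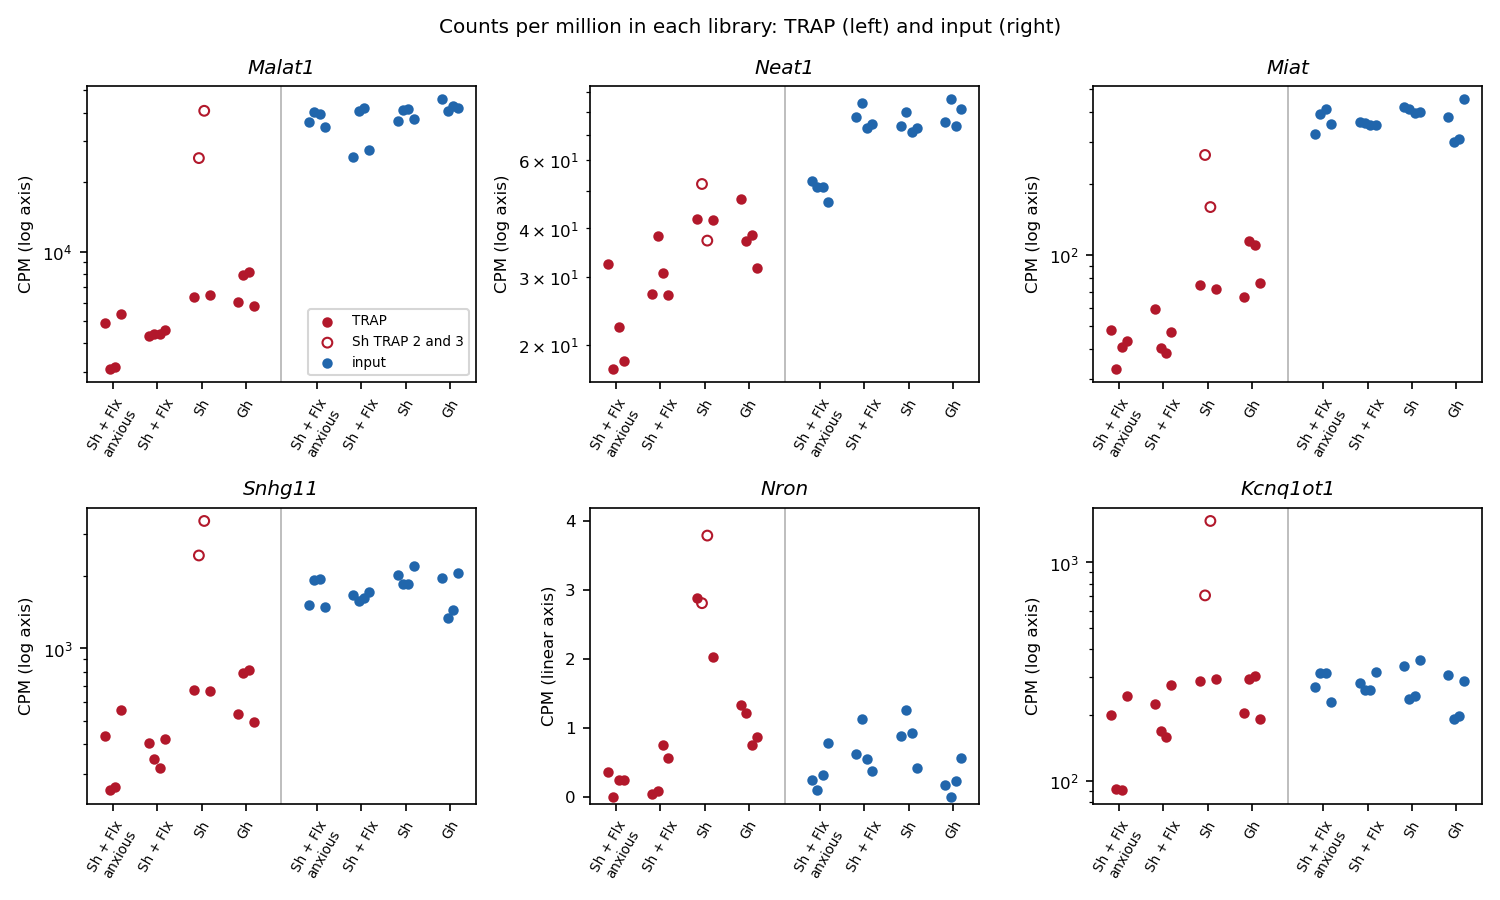
Level of each RNA in every library, in CPM (logarithmic axis, except the linear axis of Nron), by group, with TRAP libraries in red and input libraries in blue; open circles are Sh TRAP 2 and 3. Malat1, Neat1, Miat and Snhg11 lie lower in TRAP than in input, apart from both open circles of Snhg11 and, for Malat1, the open circle of Sh TRAP 3, while the fractions overlap for Kcnq1ot1 and Nron in some groups.

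TRAP held less Malat1, Neat1 and Miat than input in all 4 groups, and less Snhg11 in 3 of them. Malat1 had 4920.4, 3106, 3148 and 5383 CPM in Sh + Flx anxious TRAP libraries, against 36268, 40056, 39620.5 and 34759.5 CPM in Sh + Flx anxious input. In Gh it had 6014, 7887, 8117 and 5779 CPM in TRAP, against 45584, 40604, 42728 and 41654 CPM in input. Every TRAP library of these groups lay far below every input library. Malat1 had a log2 fold change in TRAP over input of -3.36 (SE 0.38, adjusted p = 8.38e-09) in Sh + Flx anxious, -3.15 (SE 0.37, adjusted p = 2.18e-08) in Sh + Flx and -2.93 (SE 0.42, adjusted p = 8.53e-07) in Gh, by edgeR's quasi-likelihood test with Benjamini-Hochberg adjustment over 17015 genes. With fewer cells of a type and less RNA per cell not told apart in bulk RNA, these values compare the make-up of 2 RNA pools.

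Malat1 in Sh TRAP libraries had 6321, 25396, 40707 and 6466 CPM, against 36678, 41117, 41495 and 37547 CPM in Sh input. Sh TRAP 3 alone reached the input range, and Sh TRAP 2 lay between the fractions. The log2 fold change was -1.07 (SE 0.35, adjusted p = 0.014, edgeR). It was -2.78 (SE 0.20, adjusted p = 3.76e-14) without Sh TRAP 2 and 3, and at -0.77 it did not pass without Sh TRAP 1, nor at -0.77 without Sh TRAP 4.

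Neat1 had 32.3, 17.4, 22.2 and 18.2 CPM in Sh + Flx anxious TRAP, against 53.2, 51.2, 51.3 and 46.8 CPM in input. The 2 fractions did not overlap in any of the 4 groups, Sh TRAP 2 and 3 included. Neat1 had log2 fold changes of -1.35 (SE 0.15) in Sh + Flx anxious, -1.54 (SE 0.15) in Sh + Flx, -0.93 (SE 0.14) in Sh and -1.27 (SE 0.16) in Gh, with adjusted p of 3.38e-06 or less by edgeR. This was the smallest drop among Malat1, Miat and Neat1 in every group, and Neat1 was the member that changed least in Sh when Sh TRAP 2 and 3 were left out (-0.98, SE 0.17). Of 9 oligodendrocyte markers, 8 were lower in TRAP in the same fit in Gh, with a summed level of 526 to 1358 CPM over all TRAP libraries and 1045 to 1972 CPM over all input libraries, and their part in the Neat1 drop was not tested.

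Miat had 48.3, 33.2, 40.9 and 43.3 CPM in Sh + Flx anxious TRAP, against 323, 394, 412 and 358 CPM in input. In Sh it had 74.5, 264, 159 and 72.0 CPM in TRAP, against 419, 414, 396 and 401 CPM in input. The fractions did not overlap in Sh, although Sh TRAP 2 stood above the other 3. Miat was lower by a log2 fold change of -3.34 (SE 0.27) in Sh + Flx anxious, -3.15 (SE 0.27) in Sh + Flx, -1.65 (SE 0.26) in Sh and -2.31 (SE 0.29) in Gh, with adjusted p of 3.43e-06 or less by edgeR. It was -2.63 in Sh without Sh TRAP 2 and 3.

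Snhg11 had 434, 257, 266 and 554 CPM in Sh + Flx anxious TRAP, against 1522, 1924, 1942 and 1481 CPM in input. In Sh it had 673, 2436, 3389 and 665 CPM in TRAP, against 2029.8, 1852, 1854 and 2200.2 CPM in input. Sh TRAP 2 and 3 were above all Sh input libraries, and Sh TRAP 1 and 4 were below them. Its log2 fold change was -2.35 (SE 0.35, adjusted p = 1.38e-06) in Sh + Flx anxious, -2.35 (SE 0.35, adjusted p = 1.29e-06) in Sh + Flx and -1.72 (SE 0.38, adjusted p = 0.000445) in Gh by edgeR. In Sh it was -0.23 (SE 0.33, adjusted p = 0.614), and -1.73 (SE 0.23, adjusted p = 7.05e-08) without Sh TRAP 2 and 3.

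Kcnq1ot1 did not behave like the other 4. It had 201, 91.8, 90.7 and 245 CPM in Sh + Flx anxious TRAP, against 270, 311, 311 and 230 CPM in input. In Gh it had 204, 293, 302 and 192 CPM in TRAP, against 307, 192, 199 and 286 CPM in input, and the ranges overlapped in full. Its log2 fold change was -1.0 (SE 0.37, adjusted p = 0.0243) in Sh + Flx anxious, -0.63 (95% interval -1.39 to 0.12, adjusted p = 0.151) in Sh + Flx and -0.33 (95% interval -1.14 to 0.49, adjusted p = 0.539) in Gh, by edgeR. Without Sh TRAP 2 and 3, which enter the shared spread, it was called in Sh + Flx too, at -0.55 (SE 0.22, adjusted p = 0.0364).

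The Kcnq1ot1 call in Sh + Flx anxious was lost without anxious input 2 (-0.96) or input 3 (-0.96) and without anxious TRAP 2 (-0.81) or TRAP 3 (-0.81). In Sh, Kcnq1ot1 had 287, 707, 1549 and 294 CPM in TRAP, against 336, 237, 244 and 358 CPM in input. It was higher in TRAP, with a log2 fold change of 1.20 (SE 0.37, adjusted p = 0.01, edgeR). That rested on the libraries that stood apart: it was 0.36 and not called without Sh TRAP 3 alone, and -0.17 (95% interval -0.73 to 0.39, adjusted p = 0.62) without Sh TRAP 2 and 3.

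Nron, the rarest of the 6, was not called in any group by edgeR with TMM scaling. It had 2.88, 2.81, 3.79 and 2.03 CPM in Sh TRAP, against 0.884, 1.26, 0.921 and 0.415 CPM in Sh input, and 1.33, 1.21, 0.750 and 0.875 CPM in Gh TRAP, against 0.174, 0, 0.232 and 0.557 CPM in Gh input. All TRAP libraries of Sh and Gh were above all input libraries of the same group, as for 15.4% of genes in Sh and 22.6% in Gh. The log2 fold change was 1.59 (95% interval 0.05 to 3.12, adjusted p = 0.0928) in Sh and 1.92 (95% interval 0.19 to 3.65, adjusted p = 0.068) in Gh by edgeR. In Sh + Flx anxious and Sh + Flx it was -0.90 (95% interval -2.53 to 0.73) and -1.0 (95% interval -2.55 to 0.55). Other settings called Nron higher: DESeq2 in Sh (1.63, adjusted p = 0.0467, at 18.9% of genes higher) and in Gh (2.0, adjusted p = 0.0303, at 18.5%), and edgeR in Gh with library size alone (2.15, adjusted p = 0.0401, at 28.9%) and with all reads as library size (2.49, adjusted p = 0.0169, at 41.4%).

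**Figure D2:**
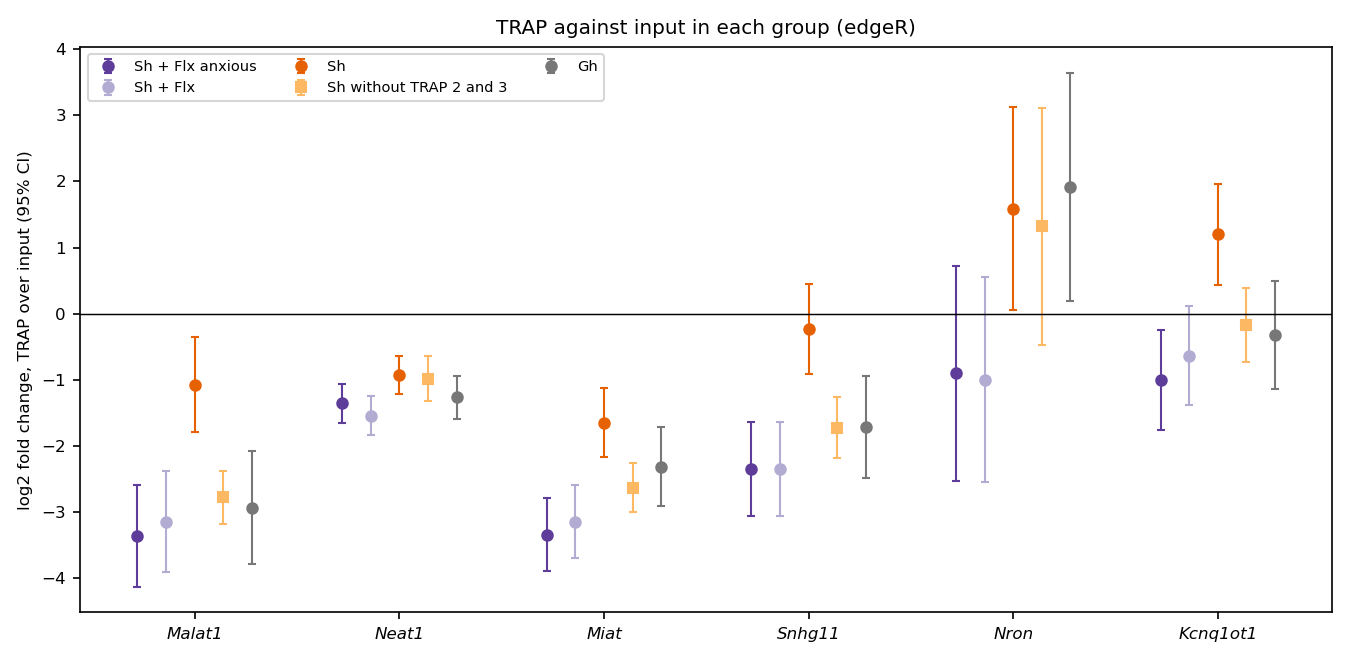
Log2 fold change of TRAP over input for each RNA in each group, from edgeR (points) with 95% intervals (bars); squares give Sh without Sh TRAP 2 and 3. Malat1 lies at -2.78 in the Sh squares and at -1.07 in the Sh circles, and Kcnq1ot1 lies on both sides of 0.

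Of the 6 RNAs, 5 were lower in TRAP at an adjusted p under 0.05 in Sh + Flx anxious, 4 in Sh + Flx, 3 in Sh and 4 in Gh. Among all 17015 genes tested, 26.8%, 26.9%, 18.8% and 21.9% were lower in these groups. By edgeR with TMM scaling none was higher in Sh + Flx anxious, Sh + Flx and Gh, where 24.0%, 24.9% and 20.3% of all genes were higher, and 1, Kcnq1ot1, was higher in Sh, where 21.3% of genes were. With Nron called higher by the settings given above, the count was 1 in Gh (DESeq2, library size alone, all reads) and 2 in Sh (DESeq2). The Sh count was 4 lower without Sh TRAP 2 and 3, with 25.3% of genes. On the TMM scale of the fit (trimmed mean of M values, a scaling of library sizes), all TRAP libraries were below all input libraries for 5 of the RNAs in Sh + Flx anxious (26.9% of genes), 5 in Sh + Flx (27.6%), 2 in Sh (16.7%) and 4 in Gh (27.1%), and for 4 in Sh without Sh TRAP 2 and 3 (39.6%).

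The split of all genes depended on the scaling. With TMM, 3450 to 4244 genes were higher and 3205 to 4581 lower in the 4 groups. With library size alone 4568 to 5405 were higher and 2257 to 3334 lower, and the median of all genes moved up by 0.15 to 0.24 on the log2 scale. With all reads as library size, reads outside features included, 5245 to 8514 were higher and 991 to 1512 lower, and the median moved up by 0.28 to 0.67. The called drops of Malat1, Neat1, Miat and Snhg11 kept their direction under both scalings, with Neat1 in Gh at -0.71 and Malat1 in Gh at -2.39 under all reads. Kcnq1ot1 in Gh, not called, changed sign to 0.23 there.

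Other long noncoding RNAs known from the nucleus were also mostly lower in TRAP. Of 19 tested, 15 were lower and 1 higher in Sh + Flx anxious, 14 and 2 in Sh + Flx, 10 and 2 in Sh, and 12 and 1 in Gh. Their median log2 fold change was -1.48, -1.62, -0.71 and -1.21 in these groups, against -0.08, -0.07, 0.01 and -0.06 over all genes. Meg3, an imprinted RNA that stays in neuronal nuclei, was at -3.26 in Sh + Flx anxious and -2.60 in Gh. Dlx6os1, transcribed antisense to the interneuron gene Dlx6, was at -1.79 and -1.97, Sox2ot, which overlaps Sox2, at -1.23 and -1.12, and Ftx, of the X-inactivation centre, at -2.31 in Sh + Flx anxious. All 4 passed the test in the groups named. Interneuron markers were lower in TRAP in the same fits, 5 of 6 in Gh, with a summed level of 614 to 1182 CPM in TRAP and 1169 to 1542 CPM in input, and their part in these drops was not tested.

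Noncoding RNAs that host small nucleolar RNAs or act in the cytoplasm were split. Of 14 tested, 2 were higher and 3 lower in Sh + Flx anxious, with 2 and 4 in Sh + Flx, 2 and 3 in Sh, and 2 and 3 in Gh. Snhg18 was higher in TRAP in Gh, at 3.45 (SE 0.35), and Snhg1, a host of box C/D snoRNAs, at 1.14 (SE 0.25), while Snhg7 was lower at -1.46 (SE 0.34) and Snhg12 at -0.88 (SE 0.21), all by edgeR. Snhg11 at -1.72 thus lay below all 4 in Gh. Of all 17015 genes, 24.0% were higher and 26.8% lower in Sh + Flx anxious, and 24.9% and 26.9% in Sh + Flx. The shares were 21.3% and 18.8% in Sh, and 20.3% and 21.9% in Gh.

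Genes for proteins that work with the 6 RNAs, and genes of the Kcnq1 imprinted domain, showed no common direction of RNA level between the fractions. Of all 17015 genes, 24.0% were higher and 26.8% lower in Sh + Flx anxious TRAP, and 20.3% and 21.9% in Gh. Of 26 paraspeckle proteins, 4 were higher and 9 lower in Sh + Flx anxious TRAP, and 3 and 8 in Gh, with Cpsf6, a subunit of the cleavage factor that sets the 3′ end of Neat1, at -0.94 and Rbm3, a cold-induced RNA-binding protein, at 0.71 in Gh. Of 28 speckle and splicing factors, 3 were higher and 8 lower in Sh + Flx anxious, and 4 and 7 in Gh, where Qk, which binds TACTAAC, was at -1.18 and Prpf8, a core spliceosome protein, at 1.36. Of 12 tested genes of the Kcnq1 imprinted domain, 4 were higher and 1 lower in Gh, among them Cdkn1c, a cell cycle inhibitor silenced by Kcnq1ot1 on the paternal chromosome, at 2.86 and Slc22a18, a membrane transporter, at 3.76. Of 23 genes of NFAT signalling and the Nron complex, 5 were higher and 6 lower in Gh, with Iqgap1, a scaffold protein of that complex, at 2.27 and Nfatc4 at 5.09.

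Among TRAP libraries, none of the 6 RNAs was called in Sh against Gh. Kcnq1ot1, Malat1 and Snhg11 had log2 fold changes of 1.77 (95% interval 0.65 to 2.89), 1.73 (0.66 to 2.79) and 1.69 (0.66 to 2.72) in Sh against Gh, each with adjusted p = 0.206 by edgeR. The same RNAs were at 0.31, -0.06 and 0.12 without Sh TRAP 2 and 3. Nron was at 1.52 (95% interval -0.32 to 3.37, adjusted p = 0.394), and every Sh TRAP library was above every Gh TRAP library for it, as for 6.17% of genes, and 21.9% without Sh TRAP 2 and 3. Of all genes, 0.0% of 16754 genes were called lower, with 0 called in all by edgeR, 2634 genes at an unadjusted p under 0.05 and 149 higher and 87 lower by DESeq2.

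Sh + Flx TRAP held less of 5 of the RNAs than Sh TRAP, at 3.81% of all genes. Snhg11 had 403, 346, 319.8 and 421 CPM in Sh + Flx TRAP, against 673, 2436, 3389 and 665 CPM in Sh TRAP. Malat1 had 4295, 4375, 4376 and 4559 CPM, against 6321, 25396, 40707 and 6466 CPM in Sh TRAP. No Sh + Flx library reached the lowest Sh library for either RNA. The log2 fold change was -2.39 (SE 0.45, adjusted p = 0.0118) for Snhg11, -2.30 (SE 0.47, adjusted p = 0.0144) for Malat1, -1.69 (SE 0.34, adjusted p = 0.0135) for Miat, -1.91 (SE 0.48, adjusted p = 0.0313) for Kcnq1ot1 and -2.99 (SE 0.83, adjusted p = 0.0418) for Nron, by edgeR. Neat1 at -0.56 missed the threshold (95% interval -0.97 to -0.15, adjusted p = 0.0835).

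These calls rested on Sh TRAP 2 and 3. Without both, none of the 6 was called in Sh + Flx against Sh, with 0.912% of genes called lower and 3131 at an unadjusted p under 0.05, and Snhg11 was at -0.82 (adjusted p = 0.0705), Miat at -0.64 (adjusted p = 0.087) and Malat1 at -0.52 (adjusted p = 0.117, edgeR). Without Sh TRAP 3 alone, 3 of the 5 were called, and without Sh TRAP 2, Sh + Flx TRAP 1 or Sh + Flx TRAP 2 also 3. Without Sh + Flx TRAP 3 only Snhg11 was called. The share of reads outside annotated features was at most 35.8% in the Sh + Flx TRAP libraries and 38.8% to 58.6% in Sh TRAP, and its part was not tested. The summed level of 9 oligodendrocyte markers was 668 to 907 CPM in Sh + Flx TRAP, against 1042 to 1358 CPM in Sh TRAP, with 0 called higher and 1 lower, and that of 7 astrocyte markers was 1858 to 2576 CPM, against 2919 to 3633 CPM in Sh TRAP, with 1 higher and 1 lower. Neither range overlapped, and the part of these cells was not tested.

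Sh + Flx anxious TRAP held less of all 6 than Sh TRAP, at 6.14% of all genes, with log2 fold changes of -0.97 for Neat1 (SE 0.20, adjusted p = 0.00867), -1.82 for Miat (SE 0.34, adjusted p = 0.00664), -2.35 for Malat1 (SE 0.47), -2.33 for Snhg11 (SE 0.45), -2.27 for Kcnq1ot1 (SE 0.49) and -3.75 for Nron (SE 0.87), by edgeR. Each anxious TRAP library was below each Sh TRAP library for each of the 6 (8.65% of genes). Neat1, for example, had 32.3, 17.4, 22.2 and 18.2 CPM in anxious TRAP, against 42.2, 52.1, 37.2 and 42.0 CPM in Sh TRAP. Without Sh TRAP 2 and 3, Neat1 at -0.85 (adjusted p = 0.0265) and Miat at -0.77 (adjusted p = 0.0307) were still called, and the other 4 were not, at 1.89% of genes called lower. With libraries 1 and 4, and 2 and 3, of each group summed, 0 of the 6 and 0 of all 17296 genes were called. Neat1 was at -0.95 and Miat at -1.73 in that fit (adjusted p = 0.328 for both, edgeR). The summed level of oligodendrocyte markers was 526 to 867 CPM in anxious TRAP, below the Sh range, with 0 of 9 higher and 2 lower, and that of astrocyte markers was 1805 to 2900 CPM, also below it, with 1 of 7 higher and 0 lower, and their part was not tested. The share of reads outside annotated features was 25.2% to 33.2% in anxious TRAP, against 38.8% to 58.6% in Sh TRAP, and its part was not tested. The same Sh libraries served both comparisons, so the counts of 5 and 6 are not independent of each other. With all reads as library size, 1192 genes were higher and 137 lower in Sh + Flx against Sh, against 444 and 639 with TMM, and 2575 and 323 in Sh + Flx anxious against Sh, against 728 and 1029 with TMM. Neat1 then missed the threshold in the anxious comparison, at -0.54.

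Against Gh TRAP, and between the drug-treated groups, no member was called. The log2 fold change of Miat was -1.0 (95% interval -1.73 to -0.26) in Sh + Flx anxious against Gh and -0.87 (95% interval -1.60 to -0.13) in Sh + Flx against Gh, and that of Neat1 was -0.41 (95% interval -0.82 to 0.00) in Sh + Flx anxious against Sh + Flx. In each of the 3 comparisons 0.0% of genes were called lower by edgeR. Unadjusted p was under 0.05 for 1282, 1029 and 724 genes in the same order, and DESeq2 called 53, 20 and 8 genes lower.

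The Gh comparisons changed when Sh TRAP 2 and 3, which are in neither group but enter the shared spread, were left out. Miat was then lower in Sh + Flx against Gh (-0.88, SE 0.17, adjusted p = 0.0135), the only member called, with 0.324% of genes. In Sh + Flx anxious against Gh, Miat (-1.01, adjusted p = 0.00313), Malat1 (-0.63, adjusted p = 0.0381) and Neat1 (-0.76, adjusted p = 0.0421) were lower, with 0.906% of genes. No member was called between the drug-treated groups in that fit either.

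The change between groups was compared with the change in input in 1 fit, to see whether TRAP moved apart from whole cortex. For Sh against Gh none of the 6 was called, at 0.00588% of genes lower and 2190 at an unadjusted p under 0.05 (edgeR). Of 17015 genes, 3 were called higher and 1 lower, and Malat1, Snhg11 and Kcnq1ot1 ranked 96th, 386th and 568th by p. For Sh + Flx against Sh, 4 were lower (2.11% of genes), with a difference of -2.11 for Snhg11 (SE 0.48, adjusted p = 0.0219), -2.08 for Malat1 (SE 0.49, adjusted p = 0.0241), -1.50 for Miat (SE 0.35, adjusted p = 0.0237) and -1.83 for Kcnq1ot1 (SE 0.52, adjusted p = 0.0488) on the log2 scale, by edgeR. For Sh + Flx anxious against Sh the same 4 were lower (5.17% of genes), by -2.12, -2.29, -1.69 and -2.20 in that order. Without Sh TRAP 2 and 3, none passed in either comparison, with 73 and 147 of 17345 genes lower. The 8 differences lay between -0.29 and -0.74. With all libraries Neat1 was called in neither comparison, at -0.61 (95% interval -1.02 to -0.20, adjusted p = 0.0779) and -0.42 (95% interval -0.84 to -0.01, adjusted p = 0.191).

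In Sh + Flx against Sh, none of the 4 passed without Sh TRAP 3 alone or without Sh input 2, where Kcnq1ot1 was at -0.99 and -1.75. Without Sh TRAP 2 or Sh input 3, 1 of the 6 passed, and without Sh + Flx input 2 or Sh + Flx TRAP 2, 2 did. Of all genes, 55 of 16962 were lower without Sh input 2. The number was 75 of 17006 without Sh input 3 and 127 of 16969 without Sh + Flx input 2. Kcnq1ot1, with an adjusted p just under the threshold, lost the call in 13 of 16 such fits. In Sh + Flx anxious against Sh it lost the call only without Sh TRAP 3, at -1.36. For Sh against Gh, 1 of the 6 passed without Sh TRAP 1 and 2 passed without Sh TRAP 4.

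In whole cortex, Neat1 was lower in the anxious mice than in every other group. It had 53.2, 51.2, 51.3 and 46.8 CPM in Sh + Flx anxious input, against 77.7, 84.7, 73.0 and 74.7 CPM in Sh + Flx input, 73.8, 80.1, 71.0 and 72.7 CPM in Sh input and 75.5, 86.3, 73.6 and 81.5 CPM in Gh input. The highest anxious library was well below the lowest of the 12 others, and the other 3 groups overlapped each other. The means were 50.6 ± 2.71 CPM in Sh + Flx anxious, 77.5 ± 5.15 CPM in Sh + Flx, 74.4 ± 3.94 CPM in Sh and 79.2 ± 5.79 CPM in Gh (SD, n = 4 each).

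**Figure D3:**
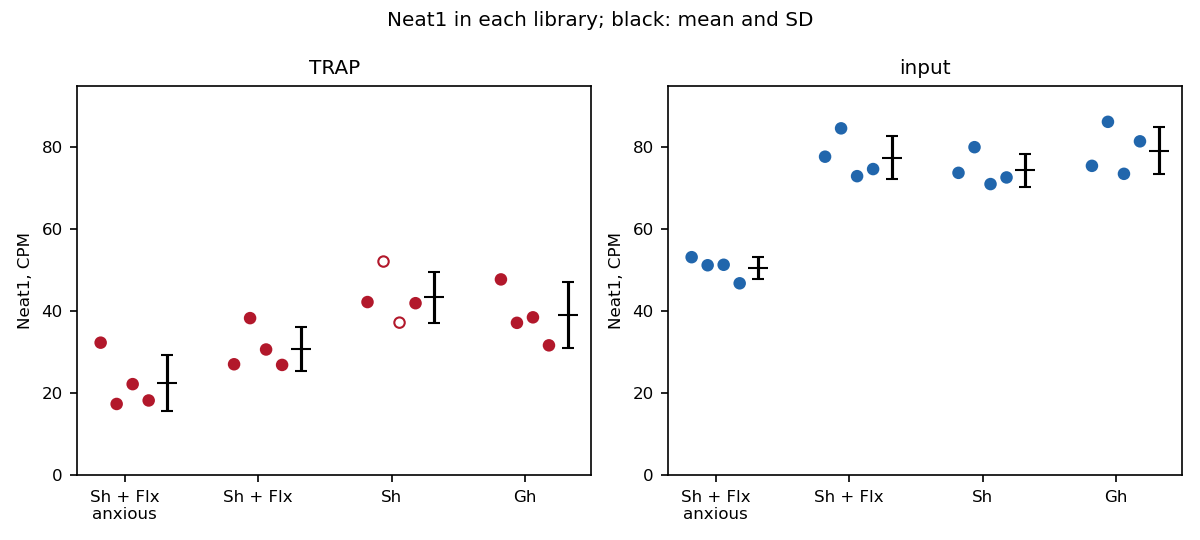
Neat1 in every library, in CPM (linear axes from 0), in TRAP (left, red) and input (right, blue) by group; crosses with bars are the mean and SD (Gh TRAP 2 and 3 counted as 1), and open circles are Sh TRAP 2 and 3. The 4 anxious input libraries lie between 46.8 and 53.2 CPM, below all other input libraries.

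Anxious input had a log2 fold change of Neat1 of -0.61 (95% interval -0.75 to -0.47, adjusted p = 2.75e-05) against Sh + Flx, -0.55 (95% interval -0.69 to -0.41, adjusted p = 3.17e-06) against Sh and -0.66 (95% interval -0.80 to -0.51, adjusted p = 1.03e-07) against Gh, by edgeR over 15690 genes. With all 4 groups in the fit it was the only one of the 6 called in these comparisons, in which 0.0765%, 2.87% and 5.27% of all genes were lower. All anxious libraries were below all libraries of the other group for Neat1 alone among the 6 against Sh + Flx (2.55% of genes) and against Sh (5.47%), and for Neat1 and Malat1 against Gh (6.23%). Malat1 was at -0.19 against Gh (adjusted p = 0.237), and was called lower with only these groups in the fit (adjusted p = 0.0109, edgeR).

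Against Sh + Flx, the comparison of 2 groups with the same housing and drug, 20 genes were called in all, 8 higher and 12 lower, and Neat1 had the smallest p of the 15690 genes. Against Sh and Gh it ranked 72nd and 51st. Leaving out any 1 library kept it between -0.64 and -0.56 against Sh + Flx, -0.58 and -0.51 against Sh, and -0.69 and -0.62 against Gh, called each time. The 3 comparisons share the 4 anxious libraries.

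Libraries 1 and 4, and 2 and 3, of a group tended to be closer than other pairs. These pairs were therefore also summed, which leaves 2 libraries in each group. Neat1 was then at -0.62 against Sh + Flx (adjusted p = 0.0319) and was the only gene called lower there, with 0 called higher. It was at -0.55 against Sh (adjusted p = 0.00213) and -0.66 against Gh (adjusted p = 0.000377, edgeR).

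In TRAP the anxious libraries had 22.5 ± 6.87 CPM of Neat1, against 30.7 ± 5.35 CPM in Sh + Flx (SD, n = 4 each), 43.4 ± 6.27 CPM in Sh (n = 4) and 39.0 ± 8.13 CPM in Gh (n = 3). Anxious TRAP 1, at 32.3 CPM, was inside the range of Sh + Flx and Gh. The difference from Sh + Flx was not called in TRAP, as given above.

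Oligodendrocyte markers were also low in anxious input, but did not follow Neat1 across the other groups. In anxious mice 2 of 9 were lower than in Sh + Flx, Mobp, a myelin protein gene, at -0.58 (SE 0.09, adjusted p = 0.00146) and Cnp, a myelin enzyme gene, at -0.29 (SE 0.06, adjusted p = 0.0247, edgeR), and 8 of 9 were lower than in Sh and than in Gh. None of the 9 was higher in the 3 comparisons. Their summed level was 1045 to 1398 CPM in Sh + Flx anxious, 1337 to 1449 CPM in Sh + Flx, 1593 to 1972 CPM in Sh and 1726 to 1922 CPM in Gh. The anxious and Sh + Flx ranges overlapped for these markers and did not for Neat1. The Sh + Flx range of the markers lay below the Sh and Gh ranges, while Neat1 overlapped between these groups. The summed level of 8 meningeal fibroblast markers was also low in anxious input, at 105 to 148 CPM, against 133 to 183 CPM in Sh + Flx, 199.8 to 222 CPM in Sh and 186 to 218 CPM in Gh. Of these markers, 0 were called against Sh + Flx, 2 were lower and 0 higher against Sh, and 2 were lower and 1 higher against Gh. The part of both cell types in the Neat1 difference was not tested.

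Of the genes for 26 paraspeckle proteins, none was called in anxious input against Sh + Flx, where the test gave Rbm12 at -0.30 (adjusted p = 0.148) and Rbmx at -0.24 (adjusted p = 0.153) as the smallest p. Against Sh, 3 were lower and 0 higher, Rbm3 at -0.37, Rbmx at -0.31 and Rbm12 at -0.26, all RNA-binding proteins. Against Gh, 3 were lower and 1 higher, Rbm3 at -0.47, Rbmx at -0.35, Nono, a core paraspeckle protein, at -0.24 and Ss18l1, a chromatin remodelling subunit, at 0.21. Of 28 speckle and splicing factors, 0 were called against Sh + Flx, 1 was lower against Sh, the splicing factor Srsf6 at -0.25, and 2 were lower against Gh, Srsf3 at -0.20 and Rbm25 at -0.20.

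Of 17 other long noncoding RNAs tested in input, Jpx, an activator of Xist, was lower in anxious mice against Sh + Flx (-0.65, SE 0.12, adjusted p = 0.0176, edgeR), and no other was called. Against Sh, 7 were lower and 0 higher, among them Dlx6os1 at -0.49 and Dlx1as at -0.63, and against Gh 5 were lower and 1 higher, among them Sox2ot at -0.54 and Peg13, an imprinted RNA of the brain, at -0.32. Of 9 tested genes of the Kcnq1 domain, Cdkn1c was lower against Sh (-0.85) and Gh (-0.88), and none was called against Sh + Flx. Of 22 tested NFAT and Nron complex genes, Csnk1a1, a kinase that acts on NFAT, was higher against Sh (0.24) and Gh (0.29), Rcan2, a calcineurin inhibitor, was lower against Gh (-0.19), and none was called against Sh + Flx. Among snoRNA hosts and cytoplasmic noncoding RNAs, 0 of 12 were called against Sh + Flx and Sh, with 1 higher and 1 lower against Gh.

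Malat1 was lower in Sh + Flx input than in Gh input, the only other call among the 6 in whole cortex (2.21% of genes). It had 25765, 40514, 41682 and 27649 CPM in Sh + Flx input, against 45584, 40604, 42728 and 41654 CPM in Gh input. Sh + Flx input 1 and 4 were low, and 2 and 3 were within or beside the Gh range. The log2 fold change was -0.35 (SE 0.10, adjusted p = 0.0338, edgeR). It was not called without Sh + Flx input 1 (-0.23), Sh + Flx input 4 (-0.26), Gh input 1 (-0.31) or Gh input 3 (-0.34). With all 4 groups in the edgeR fit, nothing was called for the 6 RNAs in Sh against Gh (0.0382% of genes lower, 1765 at an unadjusted p under 0.05) or in Sh + Flx against Sh (0.797%, 1986 at an unadjusted p under 0.05).

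Miat, Snhg11, Nron and Kcnq1ot1 were not called in any input comparison of the edgeR fit over all 4 groups. In Sh + Flx against Sh, Miat was at -0.19 (95% interval -0.36 to -0.02, adjusted p = 0.329) and Snhg11 at -0.27 (95% interval -0.47 to -0.06, adjusted p = 0.193). All Sh + Flx input libraries were below all Sh input libraries for both (4.09% of genes). With only these groups in the fit both were called lower, Miat with adjusted p = 0.0108 and Snhg11 with adjusted p = 0.0023 (edgeR, 1.52% of genes). Miat in input had 372 ± 39.4 CPM in Sh + Flx anxious, 358 ± 6.27 CPM in Sh + Flx, 407 ± 10.6 CPM in Sh and 360 ± 71.3 CPM in Gh (SD, n = 4 each). Snhg11 had 1717 ± 250 CPM, 1649 ± 64.9 CPM, 1984 ± 167 CPM and 1704 ± 367 CPM in the same groups. Gh input 1 and 4 were high and 2 and 3 low for both RNAs and for Kcnq1ot1. Kcnq1ot1 had 307 and 286 CPM in Gh input 1 and 4, against 192 and 199 CPM in Gh input 2 and 3.

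That spread within groups followed the share of reads that fell in no annotated feature, such as introns and the space between genes. Over the 16 input libraries, the log2 CPM of Snhg11 had a Pearson r of 0.92 with that share (permutation p = 1e-05, the smallest the permutations can give, adjusted p = 3.33e-05) and a Spearman rho of 0.93 (permutation p = 1e-05, adjusted p = 0.0001). Kcnq1ot1 had r = 0.91 (permutation p = 1e-05, adjusted p = 3.33e-05) and rho = 0.89 (permutation p = 4e-05, adjusted p = 0.000133). Miat had r = 0.71 (permutation p = 0.00226, adjusted p = 0.00323) and rho = 0.66 (permutation p = 0.00731, adjusted p = 0.0104). All permutation tests were two-sided, with 10 relations in the family.

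Malat1 and Neat1 showed no such relation in input. Malat1 had r = 0.01 (permutation p = 0.97, adjusted p = 0.97) and rho = 0.02 (permutation p = 0.951, adjusted p = 0.951), and Neat1 had r = -0.03 (permutation p = 0.908, adjusted p = 0.97) and rho = -0.16 (permutation p = 0.558, adjusted p = 0.62). Without the 2 input libraries farthest from the median share, Sh input 4 and Gh input 2, r was 0.89 for Snhg11, 0.87 for Kcnq1ot1, 0.67 for Miat, 0.10 for Malat1 and 0.09 for Neat1. A larger share outside features leaves fewer reads in genes, the total that CPM are scaled to. With CPM of all reads in place of reads in genes, r in input was 0.83 for Snhg11, 0.83 for Kcnq1ot1, 0.34 for Miat, -0.31 for Malat1 and -0.28 for Neat1.

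**Figure D4:**
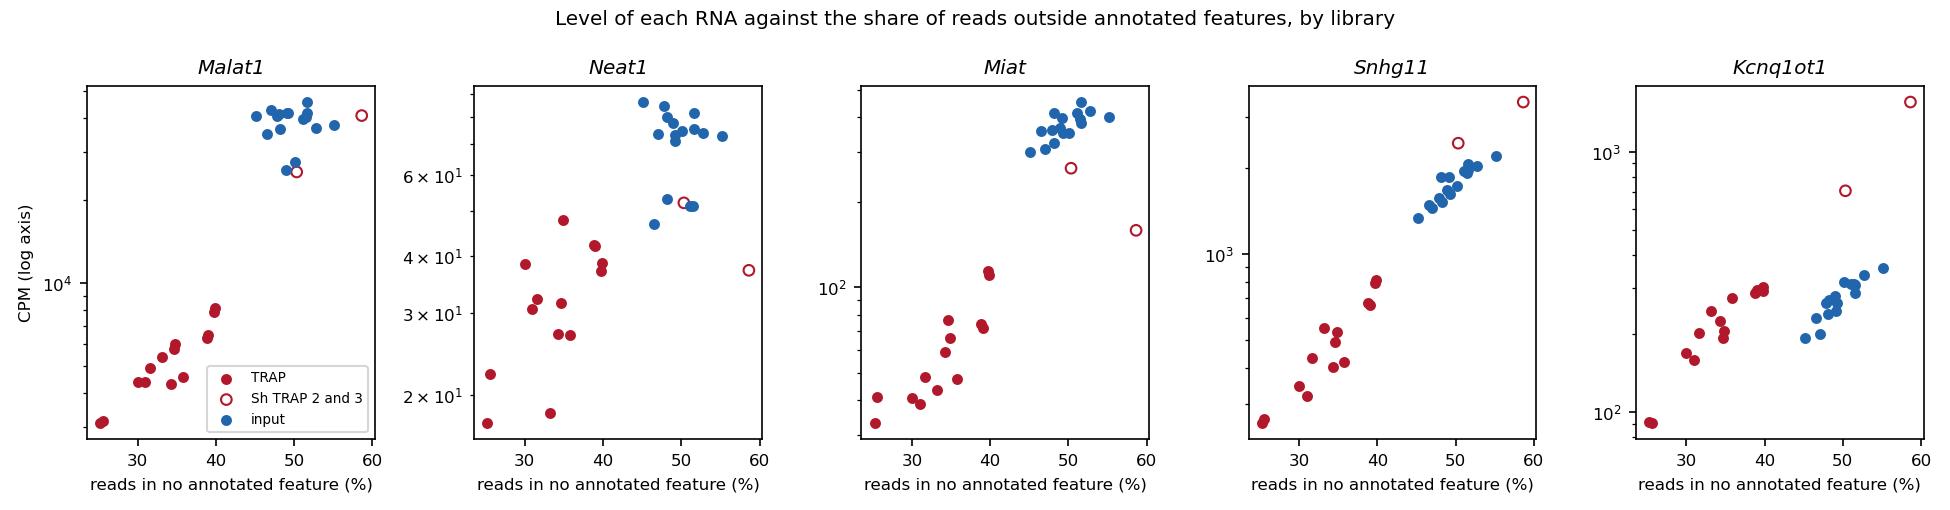
Level of each RNA but Nron (CPM, logarithmic axis) against the percent of reads in no annotated feature, 1 point for each library, with TRAP in red, input in blue and Sh TRAP 2 and 3 as open circles. Snhg11 and Kcnq1ot1 climb with the share within both fractions, with r of 0.91 to 0.95, and Malat1 does so in TRAP (r = 0.92) and not in input (r = 0.01).

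Over the 13 TRAP libraries without Sh TRAP 2 and 3, Kcnq1ot1 had r = 0.95 (permutation p = 1e-05, adjusted p = 3.33e-05) and rho = 0.92 (permutation p = 3e-05, adjusted p = 0.000133). Snhg11 had r = 0.93 (permutation p = 3e-05, adjusted p = 6e-05) and rho = 0.88 (permutation p = 0.00016, adjusted p = 0.0004). Malat1 had r = 0.92 (permutation p = 3e-05, adjusted p = 6e-05) and rho = 0.88 (permutation p = 0.00026, adjusted p = 0.000433). In these 3 RNAs the 2 libraries with the lowest share, Sh + Flx anxious TRAP 2 and 3, also had the lowest levels.

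Miat had r = 0.85 (permutation p = 0.00013, adjusted p = 0.000217) and rho = 0.86 (permutation p = 0.00024, adjusted p = 0.000433) in TRAP, and Neat1 r = 0.64 (permutation p = 0.0178, adjusted p = 0.0222) and rho = 0.58 (permutation p = 0.0428, adjusted p = 0.0535). Without Sh + Flx anxious TRAP 2 and 3, the libraries farthest from the median, r was 0.89 for Kcnq1ot1, 0.88 for Snhg11, 0.81 for Malat1, 0.85 for Miat and 0.35 for Neat1, so the relation of Neat1 rested on those libraries. Within groups, with both measures taken as deviations from the group mean, r in TRAP was 0.98 for Kcnq1ot1, 0.96 for Snhg11, 0.88 for Malat1, 0.75 for Miat and -0.03 for Neat1. With CPM of all reads, r over these 13 TRAP libraries was 0.92 for Kcnq1ot1, 0.90 for Snhg11, 0.86 for Malat1, 0.78 for Miat and 0.49 for Neat1. In input the r within groups was 0.97 for Kcnq1ot1, 0.92 for Snhg11, 0.64 for Miat, -0.03 for Malat1 and -0.21 for Neat1.

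The relation was set beside that of other genes. In input, 0.0972% of 15434 genes had a higher r with the share than Kcnq1ot1, 0.0648% than Snhg11 and 2.42% than Miat, while the median r of all genes was 0.03. In TRAP, 0.0858% of 15159 genes had a higher r than Kcnq1ot1, 0.185% than Snhg11, 0.290% than Malat1, 0.798% than Miat and 5.15% than Neat1. Both measures come from the same library, and libraries 1 and 4, and 2 and 3, of a group tended to be closer than other pairs. The points are thus not fully independent, and the p-values are too small to that extent. Nron was left out, with libraries at 0 reads.

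The genes most like each member were named by Pearson r of log2 CPM. Over 13 TRAP libraries and 11181 genes, Malat1 was most like Exph5 (r = 0.97), Ctcfl (0.97) and Snhg11 (0.97), and Snhg11 most like Malat1 (0.97), B4galnt2 (0.97) and Ctcfl (0.96). Kcnq1ot1 was most like Zfp488 (0.97), Olfr613 (0.96) and Zfp277 (0.96). Miat was most like Cyfip2 (0.95), Adcy1 (0.94) and Tanc2 (0.93), and Neat1 most like Akap8 (0.91), R3hcc1 (0.91) and Gfod1 (0.88). Neat1 was least like the other members, with r of 0.65 to Malat1 and 0.52 to Kcnq1ot1.

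Over 16 input libraries and 10377 genes, Kcnq1ot1 was most like Fut8 (r = 0.96), Gabra2 (0.93) and Zfp488 (0.92), so that Zfp488 was near it in both fractions. Snhg11 was most like Serinc3 (0.93), Kcnma1 (0.93) and Tet2 (0.92), and Miat most like Tet2 (0.91), Snhg11 (0.89) and Cacna1a (0.88). Malat1 was most like Zic1 (0.89), Ppp2r3d (0.89) and Pwwp2a (0.89), and no longer like Snhg11 (0.13). Neat1 was most like Zhx1 (0.91), Bcas1 (0.88) and Pacs2 (0.85), with r of 0.09 to Malat1, its neighbour on the chromosome. These values share libraries and are descriptions without a test.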

How the data were processed

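RNA of EGFP-L10a polysomes (TRAP) and of whole cortex (input) was amplified without marking strand and sequenced. The deposited files hold raw read counts per gene, made by the authors, with lines for reads in no feature and ambiguous reads, which were kept out of library sizes and tests. These were 25.2% to 58.6% and 0.331% to 0.724% of all reads in TRAP, and 45.1% to 55.2% and 0.411% to 0.520% in input. The submitters' processing notes name TopHat2 2.0.11, Cufflinks 2.2.1, edgeR 3.8.6, DESeq2 and mm10 (GRCm38). Which program counted the reads, and whether it used strand, is not stated in the sources at hand. Tables of the authors' own comparisons (mean FPKM, log2 fold change and p-values) were not used.

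CPM are counts scaled to the same total of reads in genes. In R 4.3.3, edgeR 4.0.16 (with limma 3.58.1) was fitted to the counts (TMM scaling, filterByExpr, quasi-likelihood test, Benjamini-Hochberg adjusted p under 0.05), in 1 fit of both fractions and 1 fit of each. Gh TRAP 2 and 3 (mean chi-square 1.13 per gene, against 15.1 or more in other Gh TRAP pairs) were summed, giving 31 libraries. Sh TRAP 1 and 4 (mean chi-square 2.17) were kept apart, and are the whole Sh arm of fits without Sh TRAP 2 and 3. Alternatives were DESeq2 1.42.0, other scalings, no filter, a replicate block, the 2 groups alone, each library left out, and, chosen after seeing the data, summed pairs of libraries. Fits were tested on simulated counts. Correlations used 100000 permutations (scipy 1.17.1), with numpy 2.4.6, pandas 2.3.3, pysam 0.24.0 and matplotlib 3.10.9 in Python 3.11.15. Sequences and lengths came from RefSeq on GRCm38.

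All 6 RNAs were named in every comparison, with up to 4 genes of each list by smallest p, and for each RNA the 3 genes of highest r among those of at least 4 CPM (pseudocount 0.5). The members and lists were chosen with earlier results of these data known. Intervals of counts at 0 cover counting error only.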

Additional observations from a re-analysis of the deposited data

Results flagged for a closer look

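The change between groups differed between TRAP and whole cortex, by the interaction test of edgeR, for 4 of the RNAs in each drug-treated group against Sh. In Sh + Flx against Sh, the TRAP change minus the input change was -2.08 for Malat1, -1.50 for Miat, -2.11 for Snhg11 and -1.83 for Kcnq1ot1 on the log2 scale. In Sh + Flx anxious against Sh it was -2.29 for Malat1, -1.69 for Miat, -2.12 for Snhg11 and -2.20 for Kcnq1ot1. All 8 values share the Sh libraries, and none passed without Sh TRAP 2 and 3.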

How the results depend on the processing

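Without Sh TRAP 2 and 3, Kcnq1ot1 in Sh TRAP against input was -0.17, and the number of the 6 RNAs called was 0 in Sh + Flx against Sh and 2 in Sh + Flx anxious against Sh in TRAP, 1 and 3 for these groups against Gh in TRAP, and 0 in both differences between TRAP and input changes. With pairs of libraries summed, an alternative chosen after seeing the data, it was 2 in Sh TRAP against input, and 0 in Sh + Flx against Sh and Sh + Flx anxious against Sh in TRAP, in both differences, and in Sh + Flx against Gh in input. Of all genes, 0 of 17296 were called in those TRAP comparisons and 0 of 17745 in both differences. In Sh TRAP against input 1845 of 17745 genes were lower, and in Sh + Flx against Gh in input 39 of 16802. With only the 2 groups compared the number of the 6 RNAs called was 0 and 0 against Sh and 3 (Sh + Flx) and 1 (Sh + Flx anxious) against Gh in TRAP, and in input 2 (Miat and Snhg11) in Sh + Flx against Sh, 0 in Sh + Flx against Gh and 2 (Malat1 and Neat1) in Sh + Flx anxious against Gh. Of all genes, 0 of 15393 and 39 of 15483 were lower against Sh in TRAP, and 28 of 16041 and 98 of 16025 against Gh. In input 229 of 15083, 336 of 15168 and 605 of 15199 were lower in the same order. With all reads as library size the number of RNAs called was 1 in the difference for Sh + Flx against Sh (14 of 17203 genes lower). It was 0 in input Sh + Flx against Gh (118 of 15695), where DESeq2 also gave 0 (509 of 20582). Leaving out 1 library gave 0 to 5 of the 6 RNAs in the difference for Sh + Flx against Sh, 3 to 5 for Sh + Flx anxious against Sh, 0 to 2 for Sh against Gh, 1 to 5 in TRAP Sh + Flx against Sh, and 0 to 1 in input Sh + Flx against Gh. The number of all genes called also changed between these fits, as given above for some of them. The causes were not tested.

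Libraries with the same number deviated together weakly at most, so the numbers were not taken as pairs. Between fractions r was -0.03 to 0.10 (median 0.04). It was above 0 in every Sh, Sh + Flx and Sh + Flx anxious library, and -0.03 to 0.01 in Gh. Between groups r was -0.24 to 0.19. The fit with the replicate block called 0 of the 6 in the difference for Sh + Flx against Sh, with 49 of 16744 genes lower. It kept 33 of 40 fold changes on their side of the threshold. Library size alone and RLE size factors kept 39 each, DESeq2 38, all reads 33, and no filter 40. Summed pairs of libraries kept 17 and did not keep 23, and the 2 groups alone kept 3 and did not keep 12. Without Sh TRAP 2 and 3, 18 were kept, 17 were weaker and 1 changed direction. The r of Neat1 with reads outside features in TRAP was -0.032 within groups.

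Depth limited Nron, with at most 96 reads in a library. A group held 3 or 4 libraries. Libraries 1 and 4, and 2 and 3, tended to be closer than other pairs (median r of deviations -0.15, against -0.44), which the p-values do not take into account. Only Gh TRAP 2 and 3, with a mean chi-square of 1.13, and Sh TRAP 1 and 4, with 2.17, came near sampling noise. Sh TRAP 2 and 3 had 64.8.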
